A study of Homo sapiens with 8 samples.

Results

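All genes of the comparison of HNRNPC and PABPC4 double knockdown (double KD) with control were examined, 3289 genes with 6461 pairs of poly(A) sites, out of 3656 genes and 7615 pairs in the series. All groups were MDA-MB-231, an established line of triple-negative breast cancer, with a dead Cas9 fused to the KRAB repressor (CRISPR interference), and received a pair of lentiviral guide RNAs selected with puromycin and blasticidin. Control cells (sgCTRL-sgCTRL) carried a pair of non-targeting guides and double KD cells (sgHNRNPC-sgPABPC4) a guide against each gene, with 2 libraries in each group. HNRNPC KD (sgHNRNPC-sgCTRL) and PABPC4 KD (sgCTRL-sgPABPC4), also of 2 libraries each and set against the same control libraries, are used where a result turns on them. Reads came from QuantSeq REV, a 3′ end method that primes on poly(A) with oligo(dT). Neither target gene is listed in the table, which leaves the depletion unchecked.

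Most human genes can end their transcripts at more than one poly(A) site. The cleavage machinery recognises a hexamer, usually AATAAA or ATTAAA in DNA letters, upstream of the cut, and the site chosen sets the length of the 3′ UTR and sometimes the last exon. HNRNPC is a nuclear protein that binds runs of U in nascent RNA, among them those of Alu elements in antisense orientation. PABPC4 is a poly(A)-binding protein that, according to the study, shuttles between nucleus and cytoplasm. Alu elements are short repeats copied through RNA and end, in sense orientation, in a stretch of A.

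The authors' deposited table gives logAPAR, which compares the ratio of proximal to distal usage in double KD with that in control, as a natural log. A negative value is a shift to the distal site. Each pair has a Wald p and a p adjusted over all pairs. No value per library is given, so no replicate spread can be stated, and every p covers counting error of the summed libraries alone, without the variation between replicates. At p 0.01, 280 of 6461 pairs were called (4.33%), and 144 pairs (2.23%) passed an adjusted p of 0.05. Counted with 1 pair per gene, that of smallest p, 229 of 3289 genes were called (6.96%). Of these, 129 shifted to the distal site (3.92% of all genes) and 100 to the proximal site (3.04%). The distal share was 56.3% (Wilson 95% interval 49.9 to 62.6%, over genes, which are not replicates). The median absolute logAPAR was 1.27 in either direction, a change of the ratio by 3.56-fold toward the distal and 3.57-fold toward the proximal site. Called values ran from 0.260 to 3.75 among distal and from 0.179 to 3.31 among proximal shifts.

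**Figure D1:**
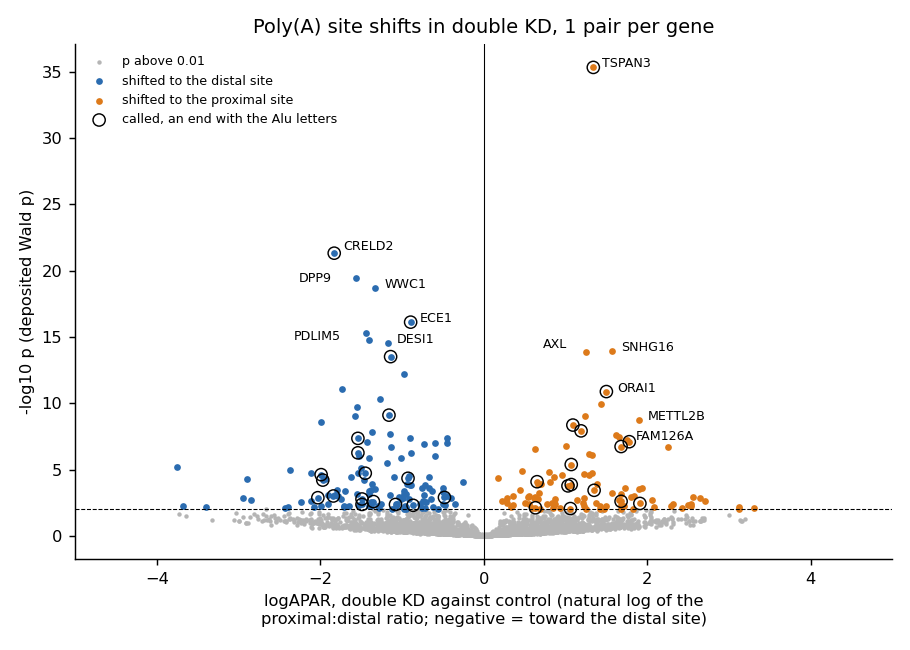
Each point is a gene of the double KD table, with logAPAR (natural log) of its pair of smallest p on the x axis and −log10 of the deposited p on the y axis; the dashed line marks p 0.01. Blue points (129 genes) shifted to the distal and orange points (100 genes) to the proximal site, and circles mark called genes with a transcript end that holds the Alu letters described in the text, among them CRELD2, ECE1, TSPAN3 and ORAI1.

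Calls depended on the depth of a gene. Among 886 genes whose pair had a Wald standard error of at most 0.5, 19.5% were called, and among 2402 genes with a larger error 2.33%. The error of 1 gene, with a p of 1.00, is undefined. Genes with 3 or more sites, which have more pairs to choose from, were called in 13.4% of 966 genes, and genes with 2 sites in 4.30% of 2323. A gene that was not called may therefore have shifted by an amount not detectable at this depth.

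A sequence recurred at some of the sites that lost usage in double KD. In 30 called genes the site that lost usage ended at, or just after, the letters AGCCTGGG, which belong to the right arm of the Alu consensus next to its stretch of A. The letters were searched for after the ends of the named genes had been seen, on the transcribed strand, in the last 60 nt of each transcript end matched to Gencode release 44 on hg38.

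Of the proximal ends that could be placed in genes shifted to the distal site, 17 of 43 held these letters (39.5%, Wilson 95% interval 26.4 to 54.4%), against 4.89% of 838 proximal ends in genes that were not called. Of the placed distal ends in genes shifted to the proximal site, 13 of 66 held them (19.7%, interval 11.9 to 30.8%), against 1.67% of 2215 in genes not called. Among ends that gained usage the letters were found in 1 of 95 distal ends, that of CHMP3, and in 2 of 29 proximal ends, those of MYO1C and RAB29. Over all 3745 matched ends the share was 3.15%. The losing ends belong to genes of different roles, among them ECE1, the endothelin-converting enzyme, NMNAT1, a nuclear enzyme of NAD synthesis, DCLRE1C, the Artemis nuclease of DNA repair, SRSF10, a splicing factor, ORAI1, the pore of the store-operated calcium channel, and PAK4, a kinase of the cytoskeleton.

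Read from the other side, genes with the Alu letters at 1 end of the pair were called more often than the background of 6.96%. Where called, they nearly always lost that end. Their median Wald standard error was 0.533 with the letters at the proximal and 0.734 at the distal end, against 0.762 over all genes. Calls depend on this error, and its part in the shares below was not tested. With the letters at the proximal end, 19 of 60 genes were called (31.7%), 17 of them away from that end. With the letters at the distal end, 14 of 51 genes were called (27.5%), 13 of them away from that end. Counting also the genes that were not called, the end with the letters was lower in 50 of 60 and in 42 of 51 genes. The letters had been chosen from named genes. Without the named genes, 13 of 54 genes were called with the letters at the proximal end, 12 of them away from it, and 9 of 46 with the letters at the distal end, 9 of them away from it. In the tables of the single KDs, which share the control, 3 of 54 genes with the letters at the proximal end were called in HNRNPC KD and 1 of 53 in PABPC4 KD. With the letters at the distal end the counts were 6 of 49, 3 in each direction, and 2 of 44. Over all 3084 genes of either table, 3.47% were called in HNRNPC KD and 1.46% in PABPC4 KD, against 5.56% and 12.2% with the letters at the proximal and distal end in HNRNPC KD and 1.89% and 4.55% in PABPC4 KD, each on few genes.

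**Figure D2:**
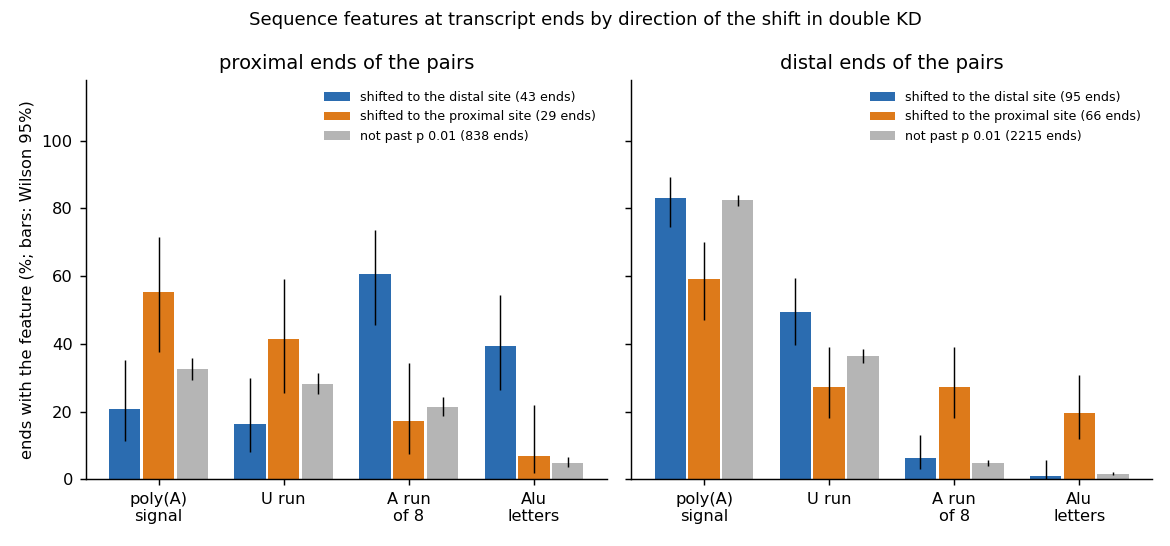
Bars give the share of placed transcript ends (%) that hold a poly(A) signal, a run of at least 5 U, a run of 8 A around the end or the Alu letters, at proximal ends (left) and distal ends (right) of the pairs, by direction of the shift in double KD; lines are Wilson 95% intervals. Losing ends are blue on the left and orange on the right: 39.5% and 19.7% of them held the Alu letters, against 4.89% and 1.67% in genes that were not called (grey).

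At genes with 3 or more sites shared by all 3 tables, the normalised reads of each site were reconstructed from the deposited values, which gave 2216 sites in 669 genes. A site had a median of 12.1 reads in control and 13.6 in double KD, both libraries summed. At the 30 placed ends with the Alu letters and a mean of at least 10 reads, 19 fell and 2 rose in double KD at p 0.01 on counting error, and the median was 0.437 of control. At the same ends the median was 0.891 in HNRNPC KD, with 4 ends that fell and 2 that rose, and 0.894 in PABPC4 KD, with 6 that fell and 0 that rose. At 539 placed ends without the letters, 32 fell and 66 rose in double KD, with a median of 1.13. Their median was 0.929 in HNRNPC KD (41 fell, 25 rose) and 1.02 in PABPC4 KD (9 fell, 11 rose), so the ends with the letters lay close to the others in HNRNPC KD and somewhat below them in PABPC4 KD.

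At the 13 ends with the letters and at least 100 control reads, 12 ranged from 0.280 to 0.592 of control in double KD, and the last, that of CHMP3, was at 1.68. The same 13 ends ranged from 0.702 to 1.55 in HNRNPC KD and from 0.678 to 1.16 in PABPC4 KD, so none of them was below 0.6 there. Of 99 ends of that depth without the letters, 8.08% were below 0.6 of control in double KD. In PLEKHA2, a phosphoinositide-binding adaptor, reads at the end with the letters were 3519 in control, 1373 in double KD, 3288 in HNRNPC KD and 3207 in PABPC4 KD. In WIPF2, an actin regulator, they were 1749, 753, 1349 and 1435 in the same order, and in HEATR5A 1704, 575, 1552 and 1506. In NMNAT1 they were 796, 223, 664 and 697. All 4 ends were low in double KD, and each was closer to control in both single KDs. No value per library exists, so a difference of the 2 double KD libraries cannot be told apart from an effect of the knockdown. The same holds for the shares of ends and genes with the Alu letters given above.

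**Figure D3:**
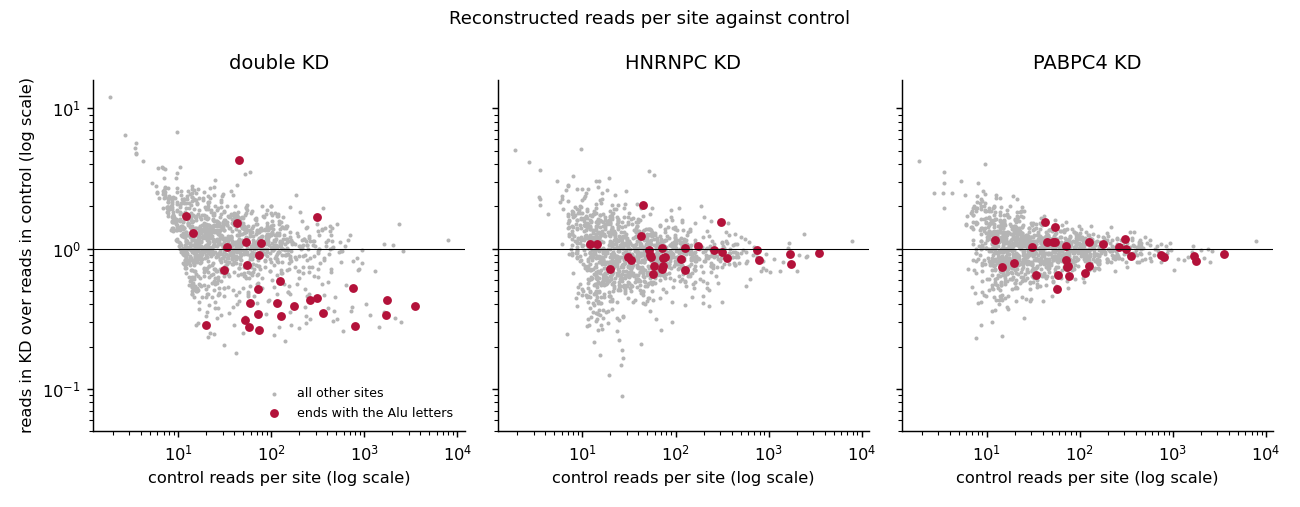
Points are poly(A) sites with reconstructed reads, with control reads on the x axis and the ratio of KD to control reads on the y axis (both log scales), for double KD, HNRNPC KD and PABPC4 KD. Red points are the 30 placed ends with the Alu letters, whose median ratio was 0.437 in double KD, 0.891 in HNRNPC KD and 0.894 in PABPC4 KD.

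Oligo(dT) can also prime on a stretch of A inside a transcript, and such stretches moved with the shifts. A run of 8 A from 30 nt before to 20 nt after the end was present at 60.5% of losing proximal ends and 27.3% of losing distal ends, against 21.5% and 4.70% in genes that were not called. It was present at 17.2% of gaining proximal and 6.32% of gaining distal ends. A-rich sequence right after the end (6 A in a row or at least 12 A in 20 nt) followed 9 of the 17 losing proximal ends with the Alu letters and 6 of the 13 losing distal ends. Ends followed by A-rich sequence but without the Alu letters had a median of 0.967 of control reads in double KD (51 ends, 10 fell, 1 rose). Without the 111 genes that have the letters at an end, 196 of 3178 genes were called (6.17%), 111 toward the distal and 85 toward the proximal site. The part of priming inside transcripts in these shifts was not tested.

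PDLIM5, an actinin-binding PDZ and LIM domain protein that the study followed up, shifted toward its distal site (logAPAR in double KD −1.40, Wald standard error 0.176, p 1.73e-15). Reads at its proximal site were 1444 in control and 396 in double KD, and reads at its distal site 68.3 and 76.0. The proximal site fell, and the distal site changed by less than its counting error. The total over the sites of PDLIM5 with reads went from 1530 to 481. In HNRNPC KD its logAPAR was 0.287 (p 0.155) and in PABPC4 KD −0.450 (p 0.00612). The proximal site is named by a position in a build that is not given. The gene has a further site named by position. A forward primer that the study labels as proximal (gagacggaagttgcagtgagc) has 1 match in the gene, at chr4:94665408-94665428 on hg38, 2799 nt before the distal end. Whether this match lies at the called proximal site or at the further site was not tested. A run of 25 A starts 75 nt from the start of the primer, and the part of priming on it was not tested. The distal end is that of a protein-coding transcript at 94668227, with a poly(A) signal (in capitals) in its last 30 nt, chr4:94668198-94668227:
PDLIM5, distal end: taAATAAAtgactgcattgttgtaaatgag

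Poly(A) signals and U runs were more frequent at ends that gained usage than at ends that lost it. A poly(A) signal in the last 40 nt was present at 55.2% of gaining proximal ends (16 of 29), at 20.9% of losing proximal ends (9 of 43) and at 32.5% of those in genes that were not called. At distal ends it was present in 83.2% of gaining ends (79 of 95), 59.1% of losing ends (39 of 66) and 82.4% in genes not called, so the gaining distal ends were at the level of all others and the losing ones below. A run of at least 5 U (5 T in DNA letters) within the last 100 nt, of the kind HNRNPC binds, was present at 41.4% of gaining proximal ends, 16.3% of losing proximal ends and 28.2% in genes not called. At distal ends the shares were 49.5% of gaining ends (Wilson 95% interval 39.6 to 59.4%), 27.3% of losing ends (interval 18.0 to 39.0%) and 36.4% in genes not called. Over all matched ends, 66.9% held a signal and 34.4% a U run. A run of 8 U was rare, at 3.10% of all ends, with 1 of 29 and 1 of 95 gaining ends and 0 of 43 and 0 of 66 losing ends. These shares cover placed ends alone. They overlap with the Alu letters, since only 1 of the 17 losing proximal ends and 1 of the 13 losing distal ends with the letters also held a signal.

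ECE1 and AXL show the contrast in each direction. In ECE1 the proximal end lacks a signal and lies in the A-rich tail of the repeat, and the distal end, 1337 nt downstream in the same last exon, has a signal (in capitals):
ECE1 proximal, chr1:21218584-21218613, minus strand: ctccgtcccaaaaaaaagaaaagagaaaca
ECE1 distal, chr1:21217247-21217276, minus strand: taatggaAATAAAatacttgtacggagggc
AXL proximal, chr19:41260265-41260294, plus strand: aattctATTAAAgtgctaaggttctaaggc
AXL distal, chr19:41261737-41261766, plus strand: caggtcacataaaactttgtatatcaacga
Reads at the proximal end of ECE1 were 314 in control and 139 in double KD, and at its distal end 1636 and 1776. Reads at the proximal end of AXL, a receptor tyrosine kinase of mesenchymal cells, were 58.8 in control and 207 in double KD, and at its distal end 447 and 452. In ECE1 the end without a signal fell, and in AXL the end with the signal rose.

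Where the proximal end lay inside the last exon of the distal transcript, shifts were mostly toward the distal site. Of 462 such genes 43 were called (9.31%), 32 of them toward the distal site (74.4%, Wilson 95% interval 59.8 to 85.1%). In all other genes 186 of 2827 were called, 52.2% of them toward the distal site (interval 45.0 to 59.2%). The median distance between both ends was 1558 nt in all genes of this class and 1926 nt in those that shifted to the distal site. Both transcripts are annotated as protein-coding in 225 of the 462 genes, of which 19 were called, 15 toward the distal site. In the others an end belongs to a transcript of another type, such as a retained intron in ZSCAN18, RPL23 and STK10 or a target of nonsense-mediated decay in MBD3. The class was singled out after its values were seen. Of the 32 proximal ends that lost usage here, 10 held the Alu letters, and where the proximal end was not followed by A-rich sequence 19 of 28 called genes shifted to the distal site (67.9%). In genes of the class that were not called, 230 of 419 values were below 0. HNRNPC KD called 26 of 447 genes of this class (5.82%, against 3.47% of all genes), 18 toward the distal site. PABPC4 KD called 11 of 443 (2.48%, against 1.46% of all genes), 8 toward the distal site. The distal share was 54.2% of all 107 genes called in HNRNPC KD and 44.4% of all 45 called in PABPC4 KD.

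Ends inside an intron of the other transcript were called in 6 of 35 genes, 4 toward the distal site. Ends in an earlier exon were called in 4 of 155 genes, and ends upstream of the start of the distal transcript in 0 of 20. Pairs with a position-named proximal site and a transcript end as distal site made up most genes (1857), of which 112 were called, 65 toward the distal site. Of 115 position-named sites with at least 100 control reads, 27 were below 0.6 of control in double KD (23.5%), 8 in HNRNPC KD and 0 in PABPC4 KD. Their sequence could not be read, because the build of the positions is not named and only 12.6% of them lie inside their gene on hg38.

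Reads show at which site of a pair the normalised reads changed. They were not set against the total of the gene, which changed as well, from 1530 to 481 in PDLIM5 and from 371 to 673 in HDLBP. The median natural log of the double KD total over the control total was −0.114 in called genes and 0.0857 over genes with reads. Of 65 genes that shifted to the distal site and had reconstructed reads, the proximal site alone fell in 34, the distal site alone rose in 20, and both did in 5. Of 44 genes that shifted to the proximal site, the distal site alone fell in 20, the proximal site alone rose in 8, and both did in 5. Neither site passed alone in 3 distal and 9 proximal shifts, and both moved the same way in 3 and 2. In each direction loss of a site was called more often than gain. Such calls rest on counting error and so on the depth of each site. The part of depth and of gene totals in this excess was not tested.

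Among distal shifts with a strong loss of the proximal site were PRKAR2A, a regulatory subunit of protein kinase A, with 162 reads in control and 46.4 in double KD at the losing end and 210 and 214 at the gaining site. SNAP29, a SNARE of vesicle fusion, had 746 and 284 reads at its proximal site and 31.0 and 46.5 at its distal end. EIF2AK2, the kinase PKR that senses double-stranded RNA, had 233 and 89.0 reads at the proximal site, and 14.1 and 39.3 at the distal end, which rose. In ZNF526, a zinc finger protein, the proximal site went from 1615 to 567 reads and the distal end from 24.3 to 35.6. The proximal sites of SNAP29, EIF2AK2 and ZNF526 are named by position and their sequence could not be read.

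In other distal shifts the distal site rose. HDLBP, the RNA-binding protein vigilin, had 163 and 188 reads at its proximal end and 186 and 445 at its distal end, 1948 nt downstream in the same last exon. BIRC5, the survival factor survivin, had 230 and 206 reads at its proximal site and 22.0 and 59.2 at its distal end. RAD23B, a ubiquitin receptor of DNA repair, had 157 and 123 reads at the proximal and 89.7 and 170 at the distal site of its pair. In DESI1, a deSUMOylating protease, the proximal site fell from 355 to 199 reads and the distal end rose from 109 to 197.

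Among proximal shifts, SNHG16, a long non-coding RNA that hosts small nucleolar RNAs, had 51.9 reads in control and 176 in double KD at its gaining end, and 147 and 104 at its losing end. MYO1C, an unconventional myosin, gained its proximal end (44.9 and 191 reads) although that end holds the Alu letters and has no signal, and its distal end rose as well (242 and 347). CHURC1 and FAM126A, the latter coding for hyccin, lost their distal sites, from 583 to 152 and from 457 to 140 reads, with 45.8 and 50.5 and 16.5 and 29.2 reads at the proximal sites. TMEM192, a protein of the lysosome membrane, lost its distal site from 2503 to 745 reads. METTL2B, a tRNA methyltransferase, lost its distal site from 1148 to 386 reads, but METTL2A is nearly identical to it and reads may be split between the copies. The same holds for PPIAL4G, a member of a family of cyclophilin copies, and for ribosomal protein genes.

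The difference of logAPAR between double KD and a single KD does not contain the control, and its adjusted p (normal test of the difference, adjusted by Benjamini-Hochberg over all shared pairs) passed 0.05 at 50 of 5170 pairs against HNRNPC KD and at 73 of 5185 pairs against PABPC4 KD. Of the 24 genes with the smallest p in double KD, 12 in each direction, 16 passed against HNRNPC KD and 19 against PABPC4 KD. These genes were chosen for a small p in double KD, so the counts are a description.

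**Figure D4:**
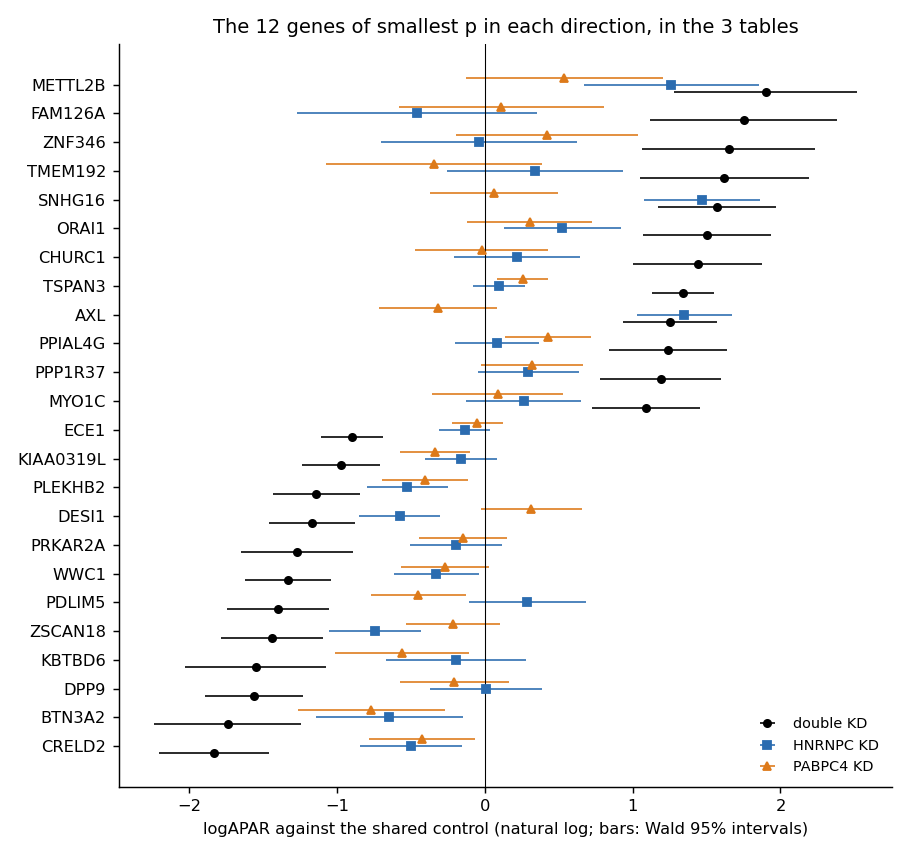
Points are logAPAR (natural log) against the shared control for the 12 genes of smallest p in each direction of the double KD table, in double KD (black circles), HNRNPC KD (blue squares) and PABPC4 KD (orange triangles); bars are Wald 95% intervals. AXL (1.35 and 1.25) and SNHG16 (1.47 and 1.57) lie close together in HNRNPC KD and double KD, whereas TSPAN3, DPP9, ECE1 and PDLIM5 lie farther from 0 in double KD than in either single KD, with PABPC4 KD values of 0.257 in TSPAN3 and −0.450 in PDLIM5 whose intervals exclude 0.

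In AXL and SNHG16 the value in double KD lay near that in HNRNPC KD. AXL had a logAPAR of 1.25 in double KD, 1.35 in HNRNPC KD and −0.315 in PABPC4 KD, and its proximal end had 207, 198 and 49.7 reads. SNHG16 had 1.57, 1.47 and 0.0608, with 176, 186 and 61.8 reads at the gaining end. Double KD differed from HNRNPC KD by −0.104 (standard error 0.121) in AXL and by 0.101 (standard error 0.17) in SNHG16. HDLBP followed with −0.731, −0.615 and −0.0237, DDIT4, an inhibitor of mTORC1 induced by stress, with 1.01, 1.19 and −0.0520, MBD3, a subunit of the NuRD complex, with −1.14, −1.11 and 0.0195, and CD44, the hyaluronan receptor, with 0.658, 0.666 and −0.372. None of these 6 passed an adjusted p of 0.05 in the difference between double KD and HNRNPC KD (each adjusted p was 1.00), which does not show that the values are equal.

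In other genes the value in double KD was farther from 0 than in either single KD. TSPAN3, a tetraspanin, had a logAPAR of 1.34 in double KD, 0.0969 in HNRNPC KD and 0.257 in PABPC4 KD (p 0.00362), and its losing end holds the Alu letters. DPP9, a dipeptidyl peptidase that restrains inflammasomes, had −1.56, 0.00652 and −0.206. CRELD2, a chaperone of the endoplasmic reticulum, had −1.83, −0.500 and −0.426, and ORAI1 had 1.50, 0.524 and 0.304, both with the letters at the losing end and both past p 0.01 in HNRNPC KD as well (0.00462 and 0.00962). The adjusted p of the difference between double KD and HNRNPC KD was 4.74e-15 for TSPAN3, 1.24e-06 for DPP9, 1.08e-04 for CRELD2 and 0.0960 for ORAI1. Against the sum of both single KDs, in which the control does not cancel, 14 of 4692 pairs departed at an adjusted p of 0.05.

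Functions were examined with 21 gene lists written by symbol, which hold 1196 of the 3289 genes and 94 of the 229 called genes. The lists were written with earlier results of these data known, they overlap, and none was tested as a set. Members entered by symbol, so a gene need not have the function that names its list. The median logAPAR over all genes was 0.00733. Lists with called shares near the background of 6.96% are given as values and carry no result.

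**Figure D5:**
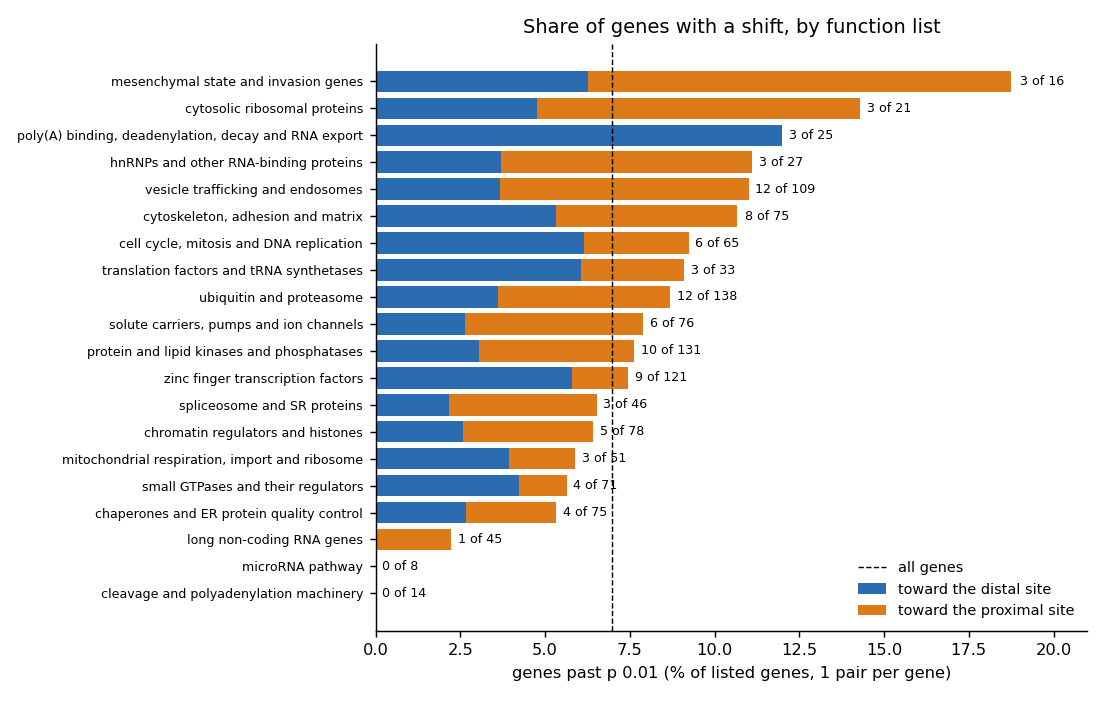
Bars give the share of listed genes (%) past p 0.01 in double KD with 1 pair per gene, split by direction, for the lists of at least 8 genes; numbers are called of listed genes. The dashed line is the share over all genes, 6.96%, and the lists farthest above it are short, with 3 of 16 mesenchymal and invasion genes and 3 of 21 ribosomal protein genes.

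Of 14 cleavage and polyadenylation factors and of 8 microRNA pathway genes, 0 were called at p 0.01 in the deposited APAlog fit. Over all genes 6.96% were called, so 0 calls in lists this short carry no result. Their median Wald standard errors were 0.657 and 0.951, against 0.762 over all genes. Of 25 genes that act on poly(A) tails and mRNA fate, 3 were called, all toward the distal site. ZFP36L1, which recruits decay to AU-rich elements, shifted by −0.260 (p 9.47e-05, adjusted p 0.00687). PAIP2, an inhibitor of poly(A)-binding proteins, shifted by −2.11 (p 0.00229, adjusted p 0.0841). SMG1, the kinase of nonsense-mediated decay, shifted by −1.35 (p 0.00260, adjusted p 0.0938). In HNRNPC KD and PABPC4 KD, PAIP2 had −1.72 and −2.20, SMG1 −0.339 and −0.364, and ZFP36L1 −0.112 and −0.121. PABPN1, the nuclear poly(A)-binding protein, had a logAPAR of 0.202 (p 0.0696) and AGO2 of 1.04 (p 0.204).

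Of hnRNPs and other RNA-binding proteins 11.1% were called, and of spliceosome and SR protein genes 6.52%, against 6.96% of all genes. The deposited adjusted p was 2.05e-05 for HDLBP, 0.192 for TIAL1 and 0.225 for HNRNPU. It was 0.00221 for SRSF10, 0.00642 for SNRPD3 and 0.118 for SRRM2. With the most proximal and most distal site of each gene, 0 RNA-binding and 2 splicing genes were called. Of 27 hnRNPs and other RNA-binding proteins, HDLBP shifted to the distal site, and TIAL1, a U-rich RNA binder, and HNRNPU to the proximal site. TIAL1 reads were 33.6 in control and 49.9 in double KD at the proximal and 50.6 and 32.2 at the distal site. Of 46 spliceosome and SR protein genes, SRSF10 shifted to the distal site and SNRPD3, an Sm core protein, and SRRM2 to the proximal site. The losing end of SRSF10, in a retained intron, had 71.6 and 36.9 reads and holds the Alu letters, and its distal coding end had 6.94 and 26.2. SNRPD3 had 694 and 869 reads at its proximal and 70.0 and 39.0 at its distal site.

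Translation genes were represented by EIF2AK2 and the release factor ETF1 (−1.04, p 0.00108) toward the distal and the initiation factor EIF5 (1.68, p 0.00514) toward the proximal site, 3 of 33 genes. Of 21 cytosolic ribosomal protein genes, RPL23 shifted to the distal site (−3.68, Wald standard error 1.32, adjusted p 0.160). RPL23A (0.632) and RPL13A (0.179) shifted to the proximal site. In HNRNPC KD and PABPC4 KD, RPL23 had −2.59 and −3.58, RPL13A 0.307 and 0.135, and RPL23A −0.447 and 0.277. Mitochondrial genes gave 3 of 51: COX18 and TOMM20 toward the distal site, and TIMM50, a subunit of the inner membrane translocase, toward the proximal site. The adjusted p was 0.175 for COX18 and 0.193 for TOMM20. TIMM50 had 0.959 in double KD, 0.483 in HNRNPC KD and 1.97 in PABPC4 KD.

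Cytoskeleton, adhesion and matrix genes were called in 8 of 75, 4 in each direction. Beside PDLIM5, ACTN4, an actinin that cross-links actin, shifted to the distal site by −0.444 (p 4.32e-08). Its proximal site went from 440 to 300 reads and its distal site from 2024 to 2148. MYO1C, CD44, TIMP3 and MYO10 shifted to the proximal site. Of 16 genes of the mesenchymal state and invasion, PDLIM5 shifted to the distal and AXL and CD44 to the proximal site. Only 3 luminal epithelial genes were listed and 0 were called. The deposited tables hold no expression levels. Reads were reconstructed for some genes only, and the cell line was not checked by its markers.

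Vesicle trafficking genes were called in 12 of 109, 4 toward the distal and 8 toward the proximal site. The proximal shifts among them include TSPAN3 and SEC24B, a coat protein of ER export, whose losing ends hold the Alu letters, and RAB29, whose gaining end does. Ubiquitin and proteasome genes were called in 12 of 138, 5 distal and 7 proximal. TRIM56, BIRC5 and USP9X led the distal and RNF213, RNF149 and PSMB2 the proximal shifts. BIRC5 is in this list by its symbol. In PSMB2, a proteasome core subunit, the losing end had 24.5 and 6.07 reads and the gaining site 97.6 and 137. Kinases and phosphatases were called in 10 of 131, among them PRKAR2A, CAMKK2 and STK10 toward the distal and AXL, PPP1R37 and FGFR1 toward the proximal site. The losing ends of PPP1R37 and FGFR1 hold the Alu letters.

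Genes with zinc finger symbols (ZNF, ZBTB, ZSCAN, ZKSCAN, KLF) were called in 9 of 121 (7.44%, against 6.96% of all genes). Toward the distal site 7 were called (ZSCAN18, ZNF526, ZNF557, ZNF101, ZNF395, ZNF721 and ZNF462), and 2 toward the proximal site (ZNF346 and ZNF207). Whether each is a transcription factor was not checked. The proximal end of ZSCAN18 lies in an A-rich stretch, and that of ZNF101 holds the Alu letters:
ZSCAN18 proximal, chr19:58087637-58087666, minus strand: ttaaaaaacaaacaaaccaaaaaaaaaaaa
In the list of cell cycle, mitosis and DNA replication, 6 of 65 genes were called. These were RAD23B, TFDP2, BIRC5 and CCNB1 toward the distal and SPC25 and CDC6 toward the proximal site. RAD23B is in this list by its symbol. At the gaining site of CDC6, a replication licensing factor, reads were 2.69 in control and 13.6 in double KD. Small GTPase genes gave 4 of 71, chromatin genes 5 of 78, solute carriers and channels 6 of 76, chaperone and ER quality-control genes 4 of 75 and long non-coding RNA genes 1 of 45, SNHG16. In HMGB3, a high mobility group protein, the shift to the proximal site came with 86.3 and 119 reads at the proximal and 196 and 135 at the distal site, and with 73.0 and 80.1 in HNRNPC KD.

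Of the other genes that the study named, PGK1 was not called (0.379, p 0.446), and TXNRD1 and KAT14 were not listed.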

How the data were processed

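Poly(A) site usage was measured by QuantSeq REV in 2 control and 2 double KD libraries. The authors extracted RNA with on-column DNase treatment and quantified sites with Salmon 0.14.1 against Gencode release 33 transcript ends, and the labels also list UMI-tools, with no role given. The labels name hg38. The deposited values are logAPAR on a natural log scale with p-values and adjusted q-values per pair from the authors' APAlog fit (multinomial logistic regression), and these authors' columns are the only values in the tables. Since no counts per library are given, nothing was refitted and total depth is unknown.

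From these, Wald standard errors were |logAPAR| over the normal deviate of p. Reads per site were solved from the variances of the 3 tables (variance of a site: 1 over its reads in control plus 1 over its reads in KD), kept where the error of the log reads was at most 0.05. Low values were whole multiples of 1 read of either library, within 0.012, at 96.9% of control and 94.8% of double KD values. The step was tested on simulated data made with the same formula for the variance. That test cannot show whether the formula holds for the deposited fits. Differences between tables used errors from the reads, or, at genes without them, added Wald variances (an upper bound), and were adjusted over all shared pairs, not over named genes alone. The PABPC4 KD table was assigned by elimination of the other names. Of 4258 transcript names 3745 matched Gencode release 44.

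Named genes were the 12 of smallest p in each direction, up to 3 per list and direction, and genes that the study singled out; further genes with the Alu letters were named after their values were seen. Members and lists were chosen with earlier results of these data known. Alternatives were p 0.001, an adjusted p of 0.05, a Wald error limit of 0.5, a logAPAR limit of 5, the outermost pair of sites of each gene and transcript-named pairs; the Alu letters, the class of the same last exon and their settings were added after seeing the data. Some named genes and sequences are not reported here. Python 3.11.15, SciPy 1.17.1 and statsmodels 0.14.6 were used.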

Additional observations from a re-analysis of the deposited data

Results flagged for a closer look

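At 9 named genes the double KD value departed from the sum of both single KD values at an adjusted p of 0.05 (normal test, Benjamini-Hochberg over 4692 pairs). The departure was −1.36 for DPP9, −0.711 for ECE1, −1.24 for PDLIM5, −0.911 for DESI1 and −0.482 for ACTN4 among genes that shifted to the distal site. It was 0.984 for TSPAN3, 1.24 for CHURC1, 2.10 for FAM126A and −1.50 for TIMM50 among genes that shifted to the proximal site, TIMM50 being less shifted than the sum.

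With the upper-bound error at every pair, only DPP9, ECE1 and TSPAN3 of these passed, with adjusted p-values of 0.0299, 0.0299 and 1.40e-05. PDLIM5 then had 0.0746, and the others lay between 0.109 and 0.304. The losing ends of ECE1 and TSPAN3 hold the Alu letters. The control does not cancel in this sum and no value per library exists, so a deviating library cannot be told apart from a combined effect.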

How the results depend on the processing

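No paired analysis was possible because values per library do not exist in these comparison tables, and leaving out a replicate was not possible either. Where a setting's construction does not give the cause of a difference, the cause was not tested.

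By construction, stricter thresholds gave fewer calls: p 0.001 left 140 pairs and 119 genes, and an adjusted p of 0.05 left 144 pairs and 123 genes. The distal share of genes was then 63.0% and 62.6%. The outermost pair of sites of each gene (most proximal with most distal), which tests fewer pairs, left 135 genes, and transcript-named pairs alone left 77. In the same last exon the distal share was between 67.9% and 78.9% over 6 settings.

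With the outermost pair 60 of 87 named genes kept direction and side of the threshold, 20 no longer passed and 7 reversed, each being a gene whose called pair is another one: ECE1 (0.406), CHURC1 (−0.0748), METTL2B (−1.60), PSMB2 (−0.343), ACTN4 (0.483), KDM5A (−0.0858) and RAD23B (0.109). Of 84 counts over lists 54 stayed within 1.5 times and 30 were lower. With the letters AGCCTGG alone, 21 of 23 called genes with them at the proximal end and 17 of 18 with them at the distal end lost that end. At the outermost pair these counts were 7 of 7 and 8 of 8, with all 8 letters.

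Depth limits the calls: at the median Wald standard error of 0.820, only large shifts pass p 0.01.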
